A study of Caenorhabditis elegans with 2 samples.

Results

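The MYC, MAX and Mondo network of Caenorhabditis elegans is covered here by 6 genes. They are mdl-1, mxl-1, mml-1, mxl-2, mxl-3 and hlh-30, taken by symbol from the 19973 protein-coding genes annotated on the 6 chromosomes, and all 6 were found. The data are ChIP-seq regions of a GFP-tagged transcription factor in whole L1 larvae, the first larval stage, of mixed sex and of strain OP355. The strain carries unc-119(tm4063) on chromosome III and the transgene wgIs355, which the source label gives as an insertion targeting mdl-1, and the antibody field names mdl-1, while the description names eGFP-ZK337.2. There were 2 biological replicates of this 1 group and no other condition, so each comparison below is between genes or regions, or between the replicates, and carries no test over samples. Whole animals were used, so the cells that a region comes from are not known. Reads from a transgene copy of mdl-1 and from its own locus share their sequence and cannot be told apart.

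MYC-family networks work through basic helix-loop-helix leucine zipper proteins that bind DNA as pairs, mostly at the E-box CACGTG. C. elegans has no MYC. It has the MAD-like protein MDL-1, whose partner is the MAX-like MXL-1, and the Mondo-like protein MML-1, whose partner is the MAX-like MXL-2. MXL-3 is a further MAX-like protein, known in this animal as a repressor of lysosomal lipase genes, and HLH-30 is the counterpart of mammalian TFEB, an activator of autophagy and lysosome genes. In C. elegans the network is known for its part in nutrient responses and life span.

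The authors' pooled list, called on both replicates together, held 30000 regions, and 259 of them, the strongest by signal, made up the thresholded list. The list of each replicate also held 30000. The pooled list is labelled as peaks and background, so its weak entries may be background and are not taken as bound sites. Signal is the authors' value for each region, on a scale that the sources used here do not give. It ran from 15.98 to 503 in the pooled list, and the weakest thresholded region had 49.8. Rank 1 is the highest signal in a list, and positions are those of the summit, the point the authors mark in each region. Within the 6 gene bodies and 5 kb either side lay 62 pooled regions, 10 of which passed the authors' threshold. Of those 10, 8 were at mdl-1, 2 were inside hlh-30 and none was at mxl-1, mml-1, mxl-2 or mxl-3. The list of replicate 1 held 49 regions in these windows and that of replicate 2 held 54.

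The sequences under the summits that the results turn on are shown first, 90 bases either side of the summit and read along the strand of the gene, from the RefSeq assembly WBcel235, whose coordinates are those of ce11. Capitals mark CACGTG.
mdl-1, 97 bp upstream (chrX:6742164-6742344, plus strand): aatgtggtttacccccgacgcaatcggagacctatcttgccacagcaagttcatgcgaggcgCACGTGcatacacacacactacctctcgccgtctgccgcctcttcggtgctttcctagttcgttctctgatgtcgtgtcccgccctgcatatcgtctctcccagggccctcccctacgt
mdl-1, in the intron (chrX:6742947-6743127, plus strand): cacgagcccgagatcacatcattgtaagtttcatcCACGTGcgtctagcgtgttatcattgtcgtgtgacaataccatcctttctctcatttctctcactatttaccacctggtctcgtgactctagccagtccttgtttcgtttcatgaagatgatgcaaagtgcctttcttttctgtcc
mdl-1, beyond the 3' end (chrX:6743956-6744136, plus strand): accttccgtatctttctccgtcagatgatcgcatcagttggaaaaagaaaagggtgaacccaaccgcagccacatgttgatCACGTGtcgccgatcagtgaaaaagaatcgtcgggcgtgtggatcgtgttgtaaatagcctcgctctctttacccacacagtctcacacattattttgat
mdl-1, 4584 bp upstream (chrX:6737677-6737857, plus strand): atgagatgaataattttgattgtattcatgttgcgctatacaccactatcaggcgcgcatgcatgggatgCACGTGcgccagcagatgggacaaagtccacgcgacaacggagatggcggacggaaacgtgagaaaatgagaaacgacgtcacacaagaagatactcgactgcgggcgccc
hlh-30, 8870 bp inside (chrIV:4025991-4026171, minus strand): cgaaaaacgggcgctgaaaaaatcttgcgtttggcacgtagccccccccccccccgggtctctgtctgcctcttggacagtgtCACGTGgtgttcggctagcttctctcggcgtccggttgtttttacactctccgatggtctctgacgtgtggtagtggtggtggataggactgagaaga
hlh-30, 6606 bp inside (chrIV:4028255-4028435, minus strand): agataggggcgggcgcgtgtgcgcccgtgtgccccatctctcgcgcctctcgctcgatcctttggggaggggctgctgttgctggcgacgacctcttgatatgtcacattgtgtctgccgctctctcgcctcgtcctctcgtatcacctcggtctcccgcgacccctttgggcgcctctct
mml-1, 1910 bp upstream (chrIII:7376551-7376731, minus strand): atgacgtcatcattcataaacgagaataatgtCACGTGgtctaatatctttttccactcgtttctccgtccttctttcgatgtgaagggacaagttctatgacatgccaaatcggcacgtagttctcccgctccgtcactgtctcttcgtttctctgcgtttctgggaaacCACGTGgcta
mxl-3, 314 bp upstream (chrX:13351028-13351208, minus strand): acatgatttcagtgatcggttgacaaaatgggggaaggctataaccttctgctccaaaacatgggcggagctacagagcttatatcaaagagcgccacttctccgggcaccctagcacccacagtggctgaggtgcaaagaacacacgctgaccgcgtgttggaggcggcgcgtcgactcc
The 4 mdl-1 stretches and that of hlh-30 at 8870 bp each held 1 CACGTG, and the mml-1 stretch held 2. The hlh-30 stretch at 6606 bp held none, and was 64.6% G or C, the highest of the 8. The mxl-3 stretch held none.

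The gene of the MAD-like factor, mdl-1 (chromosome X, 6742351 to 6743899 on the plus strand, WBGene00003163), had 16 pooled regions in its window. The strongest, 97 bp upstream of the 5' end, had a signal of 503 and ranked first in the pooled list, with 190.5 in replicate 1 and 295 in replicate 2, where it also ranked first. The next strongest lay 4584 bp upstream with a pooled signal of 280.3, and had 147 in replicate 1 and 131 in replicate 2, ranking 6 in both. Both were intergenic, and R03E9.2 had the nearest 5' end to the upstream one, 4466 bp away. The region in the intron, 686 bp from the 5' end, had a pooled signal of 271 (rank 8), with 159 in replicate 1 (rank 4) and 111 in replicate 2 (rank 12). It was the only pooled region in the gene body.

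Beyond the 3' end of mdl-1 a region at 1695 bp from the 5' end lay in the non-coding gene R03E9.10. Its pooled signal was 187 (rank 19), with 90.3 in replicate 1 and 77.5 in replicate 2. The other 4 thresholded regions lay 1152 bp upstream (signal 109, rank 48), 2843 bp downstream of the 5' end (93.9, rank 67), 1611 bp upstream (68.3, rank 130) and 2771 bp upstream (53.5, rank 219). Replicates differed most at the weakest of these. The region 2771 bp upstream ranked 193 in replicate 2 and had no summit within 200 bp in replicate 1. An overlapping pooled region 2555 bp upstream had a signal of 32.6 (rank 1479). It was matched only in replicate 1, by a summit 2560 bp upstream at rank 171. The region 1611 bp upstream ranked 651 in replicate 1 and 61 in replicate 2. A region 4745 bp downstream stood just outside the thresholded list, with a signal of 49.02 and rank 270. Its signal was 40.05 in replicate 2, and it was not matched in replicate 1.

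The window of mdl-1 held 13 copies of CACGTG, against a median of 2 in the same windows of the 3934 other genes whose length was within 20% of its own. No such gene had 13 or more. Of the 13 copies, 5 had a pooled summit within 50 bp, and all 5 of those regions were thresholded. Over the 6 chromosomes, 4.46% of 17729 copies had a pooled summit so near and 0.395% a thresholded one. The copies without a summit included 3 between 1046 and 542 bp upstream. In the intron the copy began 55 bp before the summit, just beyond the window of 50 bp, as the intron sequence shows. Among the thresholded regions at mdl-1, those 1611 bp upstream and 2843 bp downstream also had no CACGTG within 50 bp.

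**Figure D1:**
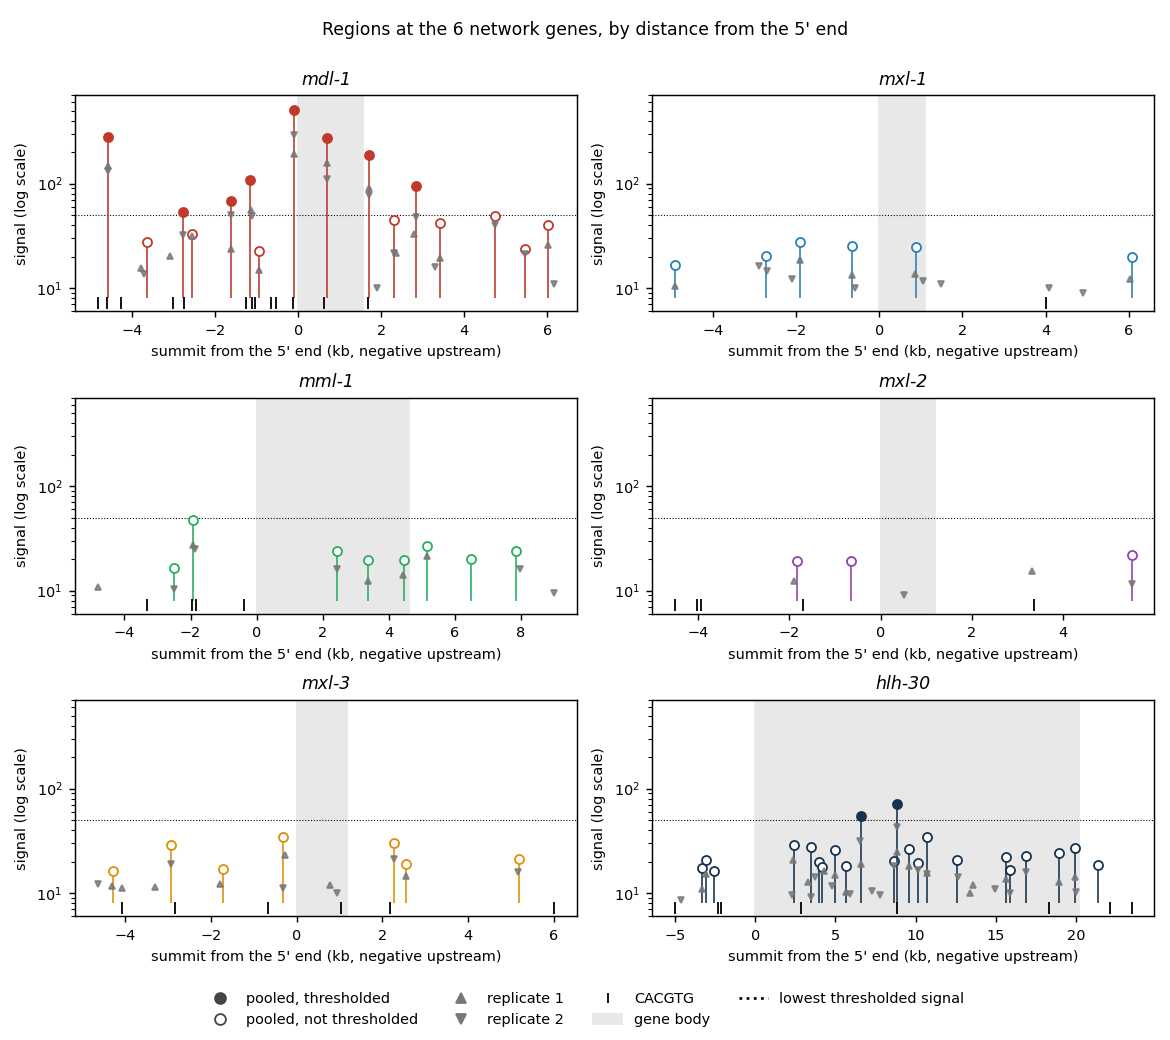
Signal (log scale) of each region against the distance of its summit from the 5' end of the gene in kb, for the 6 genes. Circles are pooled regions, filled where thresholded, triangles are the replicates on their own signal scales, ticks are CACGTG, grey is the gene body and the dotted line is the lowest thresholded signal, 49.8. The mdl-1 panel has 8 filled circles and the hlh-30 panel 2, and the mml-1 region 1910 bp upstream lies just under the line.

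High signal was not limited to the mdl-1 gene. In bins of 5 kb counted from its 5' end, thresholded regions were found from the bin 20 kb to 15 kb upstream, which held 2, to the bin 5 kb to 10 kb downstream, which also held 2. The bin 10 kb to 5 kb upstream held none. In the bin 5 kb to 10 kb downstream, where the neighbouring gene abts-4 lies, the strongest signal was 296, with 173 in replicate 1 and 125 in replicate 2. Farther out, to 40 kb on either side, no bin held a thresholded region and the strongest signal in any was 26.9, against a median of 20.8 over all 5 kb bins of the genome. Of those bins, 1.18% held a thresholded region. The part of the transgene in this run was not tested.

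**Figure D2:**
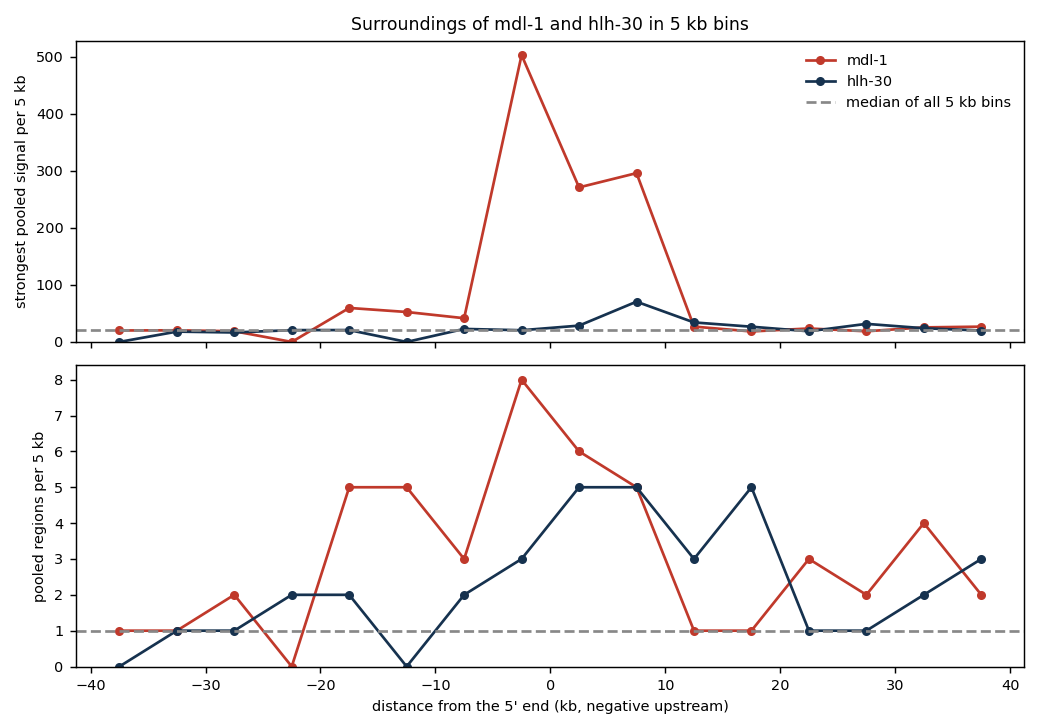
Strongest pooled signal (top) and number of pooled regions (bottom) per 5 kb bin, against the distance from the 5' end in kb, at mdl-1 and hlh-30, with the median of all bins of the genome dashed. At mdl-1 the high bins reach from 20 kb upstream to 10 kb downstream, with 503 as the highest, and at hlh-30 the highest bin, 70.6, is 5 kb to 10 kb inside the gene.

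The other gene with thresholded regions was hlh-30, the TFEB counterpart (WBGene00020930, chromosome IV, 4014793 to 4034951, minus strand). It is the longest of the 6, with a body of 20159 bp and 13 annotated transcripts. The stronger region, at 8870 bp from the outermost 5' end, had a pooled signal of 70.6 (rank 117), with 24.8 in replicate 1 (rank 500) and 42.6 in replicate 2 (rank 100). The weaker, at 6606 bp, had 53.98 (rank 216), with 18.8 in replicate 1 (rank 2776) and 31.3 in replicate 2 (rank 208). Both ranked higher in replicate 2. By replicate 1 alone neither was among the 259 strongest.

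Both lay inside the gene, which has several annotated starts. Annotated hlh-30 transcripts start at 0 and 167 bp, at 6824 bp, at 7888 bp, and between 15907 and 16620 bp. The summit at 6606 bp was 218 bp upstream of the start at 6824 bp, shared by transcripts W02C12.3b.1 and W02C12.3c.1. The summit at 8870 bp was 982 bp downstream of the start at 7888 bp, shared by W02C12.3d.1 and W02C12.3e.1. Around the outermost start, in the stretch reaching 1000 bp before it and 500 bp past it, no pooled region was listed. RefSeq, for the same assembly, ends the gene at 4034784, the start at 167 bp.

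The E-box was at 1 of these summits. In the stretch at 8870 bp, CACGTG began 7 bases before the summit, in gtgtCACGTGgtgt on the gene's strand. The window of hlh-30 held 8 copies in all, against a median of 5 in the 218 other genes of similar length, and 53 of those genes had as many or more. The other 7 copies had no pooled summit within 50 bp, including the copy at 2848 bp inside the gene and those at 2144 and 2320 bp upstream of it. The stretch at 6606 bp held no copy of the related E-box CATGTG. It did hold 1 match to the GA repeat GAGAGAG, counted on both strands, and this was within 50 bp of the summit.

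Besides the thresholded pair, hlh-30 carried many weak regions. The pooled list had 18 in the body, 14 in replicate 1 and 17 in replicate 2. Genes of similar length had a median of 5 in the pooled list and at most 14, in T28B11.1. In replicate 1 the median was 6, and rga-5 also had 14. In replicate 2 the median was 6, and lin-14 had 21. The count at hlh-30 was above that of all 218 other genes in the pooled list, and matched or exceeded by 1 gene in each replicate. At every gene each summit was counted, also where regions overlapped, as the pooled regions at 8645 and 8870 bp in hlh-30 did. The third strongest region in the body was in an intron at 10715 bp, with a pooled signal of 34.2, and with 15.7 in replicate 1 and 15.3 in replicate 2. Of the 22 regions in the window, 17 were in introns, including the one at 21345 bp, in an intron of the neighbouring gene clec-78. Of the 22, 7 were matched in both replicates and 3 in neither.

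The gene of the Mondo-like factor, mml-1 (WBGene00003378, chromosome III, 7370130 to 7374731, minus strand), had no thresholded region but had one just under the threshold. It lay 1910 bp upstream of mml-1, in intergenic sequence whose nearest protein-coding 5' end was that of mml-1. Its signal was 47.3 (rank 289), with 27.5 in replicate 1 (rank 296) and 24.8 in replicate 2 (rank 406), so both replicates placed it at about the same rank. The replicate summits lay 30 and 34 bp from the pooled one. Its stretch held CACGTG on both sides of the summit, the first beginning 58 bases before it and the second 81 bases after it, so neither was within 50 bp of the pooled summit. The summit of replicate 1 did have a copy within 50 bp.

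Elsewhere at mml-1 signal was low. The other 7 pooled regions had signals from 16.6 to 26.4, 3 of them in the body, and none of these 7 was matched in both replicates. No pooled region lay in its promoter window, which reached 1000 bp before the 5' end and 500 bp past it, although a CACGTG stands 371 bp upstream. The strongest signal in the mml-1 window, 47.3, was above that of 94.8% of the 2186 other genes of similar length, whose median was 26.8.

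The strongest region at each of the MAX-like genes was weaker than that of mml-1. At mxl-1, the gene of the MDL-1 partner (WBGene00003509, chromosome V, 11244839 to 11245926, plus strand), 6 pooled regions had signals from 16.8 to 27.7, and 4 of them were matched in both replicates. The strongest, 1908 bp upstream, was in a coding exon of the neighbouring gene pgap-1 and ranked 3796, with 18.4 in replicate 1 and 12.2 in replicate 2. The region in the body, in an intron at 878 bp, had a pooled signal of 24.7, with 13.5 in replicate 1 and 11.7 in replicate 2. Its replicate 2 summit lay 165 bp away, in the 3' UTR, and that of the strongest region lay 181 bp away. Both were near the matching limit of 200 bp. The only CACGTG of this window lay 4011 bp from the 5' end, with no pooled summit near it. Compared with 2692 other genes of similar length, the strongest signal in the window was higher than that of 66.1% of them.

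At mxl-3, the gene of the lipase repressor (WBGene00003511, chromosome X, 13349639 to 13350804, minus strand), 7 pooled regions were listed. Only the strongest was matched in both replicates, and its ranks there differed. It lay 314 bp upstream, in the non-coding gene C49F8.5. Its signal was 34.7 (rank 1045), with 22.9 in replicate 1 (rank 820) and 11.2 in replicate 2 (rank 14345). The region 2264 bp from the 5' end, downstream of the gene, had 29.9 in the pooled list and 21.03 in replicate 2 (rank 818), and was not matched in replicate 1. The strongest signal in the window, 34.7, was above that of 90.2% of 2988 other genes of similar length, whose median was 24.96. The 6 copies of CACGTG in this window were more than in 96.5% of those genes, and none of the 6 had a pooled summit within 50 bp. The replicate 1 region 4071 bp upstream had one near its summit and ranked 23394. In the body the pooled list had no region, while replicate 1 listed a region with a signal of 11.8 and replicate 2 a region with 10.03.

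Least signal was found at mxl-2, the gene of the MML-1 partner (WBGene00003510, chromosome III, 186949 to 188131, minus strand). Its 3 pooled regions had signals of 19.2, 19.2 and 21.98, and none was matched in both replicates. None of the 3 was in the body, though replicate 2 listed a region there, with a signal of 9.02 (rank 25244). The strongest pooled region lay 5497 bp from the 5' end, where coding exons of F40G9.15 and F40G9.5 overlap. Its window held 5 copies of CACGTG, 4 of them between 1715 and 4507 bp upstream, all without a pooled summit within 50 bp. Its strongest signal was above that of 30.7% of 3013 other genes of similar length, in the lower part of their range.

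Beyond the 5 kb flanks, 2 of the 4 genes with no thresholded region in their window had one within 40 kb of the 5' end, against 13.1% of all genes with none in the window. Upstream of mxl-3, the bin from 10 kb to 5 kb held a thresholded region with a pooled signal of 91.2, and with 35.4 in replicate 1 and 50.05 in replicate 2. Downstream of mml-1, the bin from 35 kb to 40 kb held one with 72.8, 25.3 in replicate 1 and 46.8 in replicate 2.

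**Figure D3:**
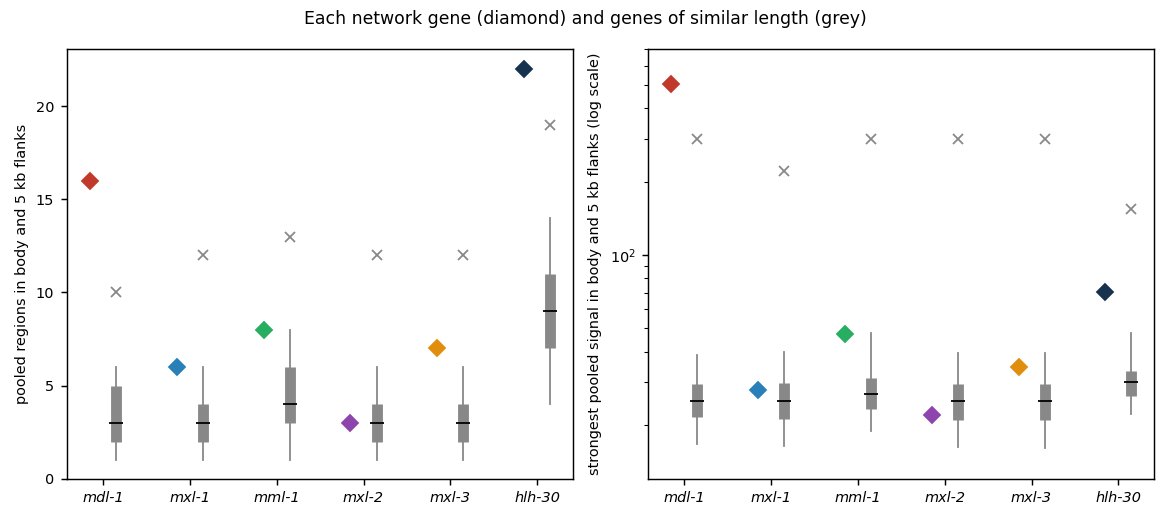
Number of pooled regions (left) and strongest pooled signal on a log scale (right) in the body and 5 kb flanks, for each network gene (diamond) beside genes whose length is within 20% of its own (thick bar, middle 50%; thin bar, 5th to 95th percentile; dash, median; cross, highest). On the left the mdl-1 and hlh-30 diamonds, at 16 and 22 regions, lie above the crosses of their own length sets, at 10 and 19, and on the right only the mdl-1 diamond lies above its own cross, at 503 against 299.5.

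Across the 6 genes, 2 had a thresholded summit in the body, mdl-1 and hlh-30. The source label gives mdl-1 as the target of the transgene, and of the other 5 genes only hlh-30 had one. Among all protein-coding genes 74 of 19973 (0.371%) had one. The share differed with length, at 0.0254% of genes similar in length to mdl-1, 0.0371% for mxl-1, 0.503% for mml-1 and 3.67% for hlh-30, while no gene of the length of mxl-2 or mxl-3 had such a summit. A pooled summit of any strength lay in the body of 4 of the 6 genes and of 51.2% of all genes. These 4, mdl-1, mxl-1, mml-1 and hlh-30, each had a stronger top body signal than most genes of similar length, as did 41.2% of all genes. At the lengths of mdl-1 and mxl-1 the median gene had no listed region in its body, so 1 region of any strength places a gene above most. At the length of mdl-1, whose strongest body signal was 271, the only other gene was gst-20, with 61.5. Among the 8 such genes at the length of hlh-30, daf-5 alone also had 2 of these summits, with a strongest signal of 105. The genes closest to hlh-30 in strongest body signal, over this 1 pooled list, were pkg-2 (61.6), nurf-1 (56.9), sea-2 (84.6), dhc-4 (85.4) and ell-1 (52.02), each with 1 thresholded summit. For mdl-1 the closest after gst-20 were ugt-38 (48.4), lgg-2 (43.6), shc-3 (41.5) and C40A11.3 (41.2), none with a thresholded summit in the body.

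With the 5 kb flanks the count was the same pair of genes, against 2.98% of all genes. In promoter windows mdl-1 was the only one, against 0.721% of all genes, and a pooled summit of any strength was in that window at 4 of the 6 genes, against 42.7%. At mxl-2 this summit was matched in neither replicate and lay 63 bp from the 5' end of ubc-20. At mxl-1 it was in a coding exon of pgap-1. Of the 10 thresholded regions at the network genes, 6 had CACGTG within 50 bp of the summit, 5 at mdl-1 and 1 at hlh-30, against 25.1% of all 259 thresholded regions and 2.49% of the 30000 pooled ones. Outside mdl-1, the labelled target of the transgene, only 2 thresholded regions remained, and 1 of these had CACGTG so near. CATGTG was near 1 of the 10, against 9.65% of thresholded and 3.50% of pooled regions. The repeat GAGAGAG was near 2 of the 10, against 17.4% and 2.01%. Apart from mdl-1, the 5 genes held 24 copies of CACGTG, of which 1 had a pooled summit within 50 bp.

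Of the 62 pooled regions, 25 had a summit within 200 bp in both replicate lists, 32 in 1 of them and 5 in neither, and over all pooled regions 24.9% were matched in both. At mdl-1 it was 12 of 16, where 1 replicate 2 region matched a pair of pooled regions. At the other 5 genes together it was 13 of 46, with 4 of 6 at mxl-1, 7 of 22 at hlh-30, 1 of 8 at mml-1, 1 of 7 at mxl-3 and 0 of 3 at mxl-2. Of the thresholded regions, 9 of 10 were matched in both, against 98.5% of all 259, a list made with both replicates. The exception was the region 2771 bp upstream of mdl-1.

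**Figure D4:**
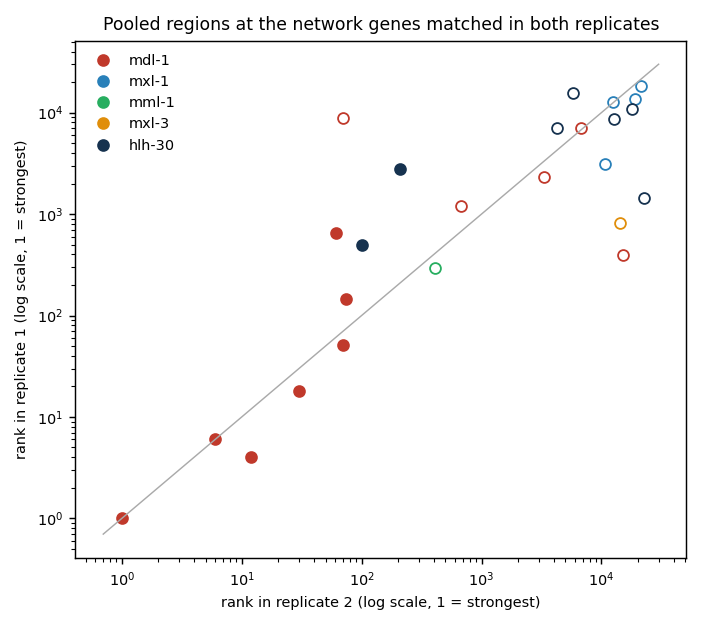
Rank in replicate 1 against rank in replicate 2 (log scales, 1 is the strongest) of the 25 pooled regions at the network genes that were matched in both, with thresholded regions filled and the line of equal rank in grey. The strongest mdl-1 regions lie near the line, both hlh-30 regions rank higher in replicate 2 and the mml-1 region, at 296 and 406, is near the line.

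Related genes were examined in 3 lists. Of 35 other genes of basic helix-loop-helix factors, 15 had a pooled region in the body and none a thresholded one, against 51.2% and 0.371% of all genes. In their windows 3 of the 35 had one, against 2.98% of all genes. They were hif-1, the hypoxia-inducible factor (signal 299.5, 1999 bp upstream), hlh-11 (133, 493 bp upstream) and hlh-27 (62.6, 3350 bp upstream). Only that of hlh-11 was in a promoter window. The highest body signals of the list were 43.5 at hif-1, 25.3 at hlh-32, 24.9 at hlh-11, 24.8 at hlh-8 and 23.2 at sbp-1, the gene of the SREBP homologue.

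Of 15 genes of nutrient signalling and of nuclear regulators tied to the network, 1 had a thresholded summit in the body, against 0.371% of all genes. It was aak-2, a catalytic subunit of AMP-activated protein kinase, with 71.8 at 921 bp from the 5' end. In their windows 3 of the 15 had one, against 2.98% of all genes, and besides aak-2 these were ogt-1, the O-GlcNAc transferase (182, 2073 bp upstream), and flcn-1, the folliculin homologue (102, beyond the 3' end). The TOR kinase gene let-363 had 32.03 in the body, daf-16, the FOXO factor of insulin signalling, had 31.7, oga-1, the O-GlcNAcase, had 34.1 and sgk-1 had 25.8, none of them thresholded. Of 21 lysosomal lipase, autophagy and lipogenic genes none had a thresholded summit in the body, against 0.371% of all genes, and 3 of the 21 had one in the window, against 2.98%. They were lgg-2 (79.3, 223 bp upstream) and lgg-1 (55.7, 970 bp upstream), both Atg8 homologues, and the lipase gene lipl-2 (75.1, 1560 bp upstream). The highest body signals were 43.6 at lgg-2, 32.3 at lipl-2, 30.03 at lgg-1, 29.8 at epg-5 and 24.2 at asm-1. The median of the strongest body signal was 0, 21.7 and 16.9 in these lists in turn, and 16.3 over all genes, where 0 stands for no listed region in the body. The lists differ in gene length, with medians of 1552, 7281 and 2503 bp, against 2027 bp over all genes.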

How the data were processed

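Regions come from the ce11 lists that the authors deposited, 1 relaxed list per replicate, 1 pooled and 1 thresholded. Per the readme texts deposited with them, regions were derived from alignments with a control, and the thresholded list drew on the other 3. The signal of each region is the authors' deposited value, and the sources used here give neither its scaling nor the caller. The thresholded list is labelled as optimal and thresholded by IDR (irreproducible discovery rate), with no cutoff value given. The files hold no read counts, so depth is unknown. Signals from different lists are printed side by side but are not known to share a scale, so lists are better compared by rank. The lowest signals listed were 15.98 for the pooled list, 10.005 for replicate 1 and 8.30 for replicate 2. Lists on ce10 were not used.

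Genes came from Ensembl release 115 (WBcel235), and no region ran past a chromosome end of that assembly. A gene's window was its body with 5 kb either side. Replicate regions were matched at 200 bp between summits, so an unmatched region may still overlap a listed one whose summit lies farther away. CACGTG, the related CATGTG and the repeat GAGAGAG were looked for within 50 bp of summits, on both strands. Genes of similar length were within 20%. Feature classes took the first that applied of coding exon, 5' UTR, 3' UTR, non-coding gene and intron. A non-coding gene was any gene not annotated as protein-coding. Counting was tested on simulated data. Python 3.11.15, pandas 2.3.3 and numpy 2.4.6 were used.

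Named were the 6 genes, genes holding or nearest to thresholded regions in their windows, up to 5 genes per list by body signal with any that had a thresholded summit, and the 5 closest in signal to mdl-1 and hlh-30. Genes with a thresholded summit in the window but not the body, and those with the most regions in the body, were added after their values were seen. Members and lists were chosen with earlier results of these data known. Alternatives changed the replicates included, threshold, window, overlap, length range and distances.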

Additional observations from a re-analysis of the deposited data

How the results depend on the processing

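The count of 2 genes with a thresholded summit in the body was 1 in promoter windows only, where hlh-30 is lost by construction, and 1 to 2 with a replicate left out, taking the 259 strongest regions of the other. It fell to 1 without replicate 2, when hlh-30 no longer had one. The 62 pooled regions became 23 in bodies only, by construction, and 49 to 54 with a replicate left out. The list of the other replicate was then used, and it also held 30000 regions, so a similar count follows in part from list size. The other results stayed within 1.5 times their value: the genes above most of similar length (4) were 5 to 6 with a replicate left out and 4 to 5 otherwise, thresholded regions with CACGTG (6 of 10) from 4 to 7, and regions matched in both replicates (25) from 17 to 37. No paired analysis was possible because a single group was sampled. As depth is unknown, ranks of weak regions may be imprecise.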
